A study of Mus musculus with 9 samples.

Results

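The MHC class II presentation genes examined here are 10 mouse genes, H2-Aa, H2-Ab1, H2-Eb1, H2-DMa, H2-DMb1, H2-DMb2, H2-Oa, H2-Ob, Cd74 and Ciita, out of 18193 genes named on the array. They were taken as a list of names, and every probe set that the platform annotation gives to them was read, 22 in all. Of these, 19 name 1 gene and 3 name a pair of genes. H2-DMb1 has no probe set of its own here, so 9 of the 10 genes could be followed singly, and all 9 passed the filter on low values. The arrays measured 9 lymphomas, 1 array each: 5 from mice that carry both the Eμ-Myc and the Eµ-TTP-1 transgenes, called double-transgenic below, and 4 from mice that carry Eμ-Myc alone. All 9 share the Eμ-Myc transgene, in which the immunoglobulin heavy chain enhancer drives the Myc oncogene in B lineage cells, and a strain background of 94% C57BL/6. Eµ-TTP-1 by its name puts tristetraprolin, an RNA-binding protein of the Zfp36 gene that shortens the life of mRNAs with AU-rich elements, under the same enhancer. The labels call the arrays of each group biological replicates, and no age of the mice is stated. The RNA came from lymphoma aliquots, so that it holds whatever other cells each tumour contained.

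MHC class II molecules display peptides from endocytosed and lysosomal proteins to CD4+ T cells. An α and a β chain (H2-A from H2-Aa and H2-Ab1, H2-E from H2-Ea and H2-Eb1) assemble on the invariant chain, the product of Cd74, which blocks the groove and steers the complex to endosomes. There H2-DM (H2-DMa with H2-DMb1 or H2-DMb2) exchanges the last fragment of invariant chain for peptide, and H2-O (H2-Oa with H2-Ob), made mainly in B cells, holds H2-DM in check. CIITA, the product of Ciita, binds no DNA itself and switches these genes on through the RFX, CREB and NF-Y factors that sit on the X and Y boxes of their promoters. B cells use this system constitutively, and early B cell precursors carry less surface class II than mature B cells do.

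The promoters are shown because the genes below are read against Ciita, and these are the letters through which it is known to act. RefSeq promoter windows (assembly GRCm38.p6, 250 bases before to 50 after a start) were at hand for 7 of the 10 genes. They were searched on both strands for a degenerate X box pattern and for the Y box letters ATTGG, and no match of one overlapped a match of the other in the lines below. Each line gives 60 bases around the Y box, 5′ to 3′ on the strand of the gene, with matches to either motif in capitals. The strand is + for all but H2-Aa, which lies on the other strand.
H2-Oa, chr17:34092291-34092350: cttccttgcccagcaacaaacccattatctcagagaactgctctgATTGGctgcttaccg
H2-DMb2, chr17:34145114-34145173: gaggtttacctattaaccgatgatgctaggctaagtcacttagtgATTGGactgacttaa
H2-DMb1, chr17:34153085-34153144: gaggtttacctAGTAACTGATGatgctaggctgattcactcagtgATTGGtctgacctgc
H2-Ob, chr17:34238803-34238862: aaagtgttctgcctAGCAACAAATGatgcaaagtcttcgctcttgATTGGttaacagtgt
H2-Aa, chr17:34287857-34287916: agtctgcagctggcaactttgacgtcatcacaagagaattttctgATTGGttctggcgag
H2-Eb1, chr17:34305763-34305822: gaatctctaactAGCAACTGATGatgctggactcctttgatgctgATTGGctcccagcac
Y box letters stood on the gene's own strand in all 7 genes, and in the 6 genes above 43 to 90 bases before the start. H2-DMa has windows for more than 1 start. The window at 34125268-34125567 held the letters 198 bases before its start, and that at 34122582-34122881 held none. An X box match followed by a Y box match within 30 bases was found in 3 of the 7, H2-DMb1, H2-Ob and H2-Eb1, with 23, 20 and 22 bases between the motifs. Of 32851 promoters of the same length, 37.4% held the Y box letters on either strand and 3.09% the X box pattern. The pair was held by 34 of them, 0.103%. For the Y box the 7 genes were counted on their own strand, so 37.4% is not the like measure. A match is a description of the letters, and a window without one holds no exact copy of this pattern.

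Ciita set 2 of the 9 lymphomas apart. Its log2 intensity was 9.67, 4.41, 9.01, 6.02 and 10.05 in double-transgenic replicates 1 to 5, against 9.89, 8.33, 10.28 and 8.73 in Eμ-Myc replicates 1 to 4. Double-transgenic replicates 2 and 4 were the lowest, below all of the Eμ-Myc lymphomas, while the other 3 double-transgenic lymphomas lay among them, so the groups overlapped. The gap between these 2 lymphomas and the other 7 was 2.30, and the next gap, within the 7, was 0.66. The value of 4.41 lies just above the filter at a log2 intensity of 4 and may be limited by background, so no fold is given. The other 2 Ciita probe sets also had their lowest values in these 2 lymphomas. The brighter of them was at 8.43, 6.05, 8.21, 5.72 and 9.31 in double-transgenic lymphomas and at 8.64, 7.70, 9.33 and 7.98 in Eμ-Myc lymphomas. There replicate 4 was the lower of the 2, so their order in Ciita is not settled. The weakest was at 2.59 in both double-transgenic replicates 2 and 4, under the filter.

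The chains of the peptide-binding molecule and the invariant chain were lowest in the same 2 tumours. H2-Aa, the α chain of H2-A, was at 13.33, 10.76, 12.44, 10.54 and 13.76 in double-transgenic lymphomas, against 13.50, 13.38, 14.03 and 13.45 in Eμ-Myc lymphomas. Its partner H2-Ab1 was at 13.30, 10.75, 12.57, 11.10 and 13.89 in double-transgenic lymphomas and at 13.02, 13.35, 14.12 and 13.62 in Eμ-Myc lymphomas. Replicates 2 and 4 of the double-transgenic group lay below the other 7 in both genes, and replicate 5 lay above 3 of the 4 Eμ-Myc lymphomas. H2-Eb1, the β chain of H2-E, was at 12.97, 9.52, 12.18, 10.35 and 13.73 in double-transgenic lymphomas, against 12.10, 12.52, 13.25 and 12.65 in Eμ-Myc lymphomas. Cd74 was at 13.83, 10.80, 13.52, 12.00 and 14.01 in double-transgenic lymphomas, against 14.27, 14.10, 14.54 and 13.77 in Eμ-Myc lymphomas. For all 4 genes the double-transgenic values spread over 3.14 to 4.21 log2 units and the Eμ-Myc values over 0.65 to 1.15. The highest level was between 10.4 and 18.5 times the lowest. Double-transgenic replicate 2 was the lowest in H2-Ab1, H2-Eb1 and Cd74, and replicate 4 in H2-Aa.

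**Figure D1:**
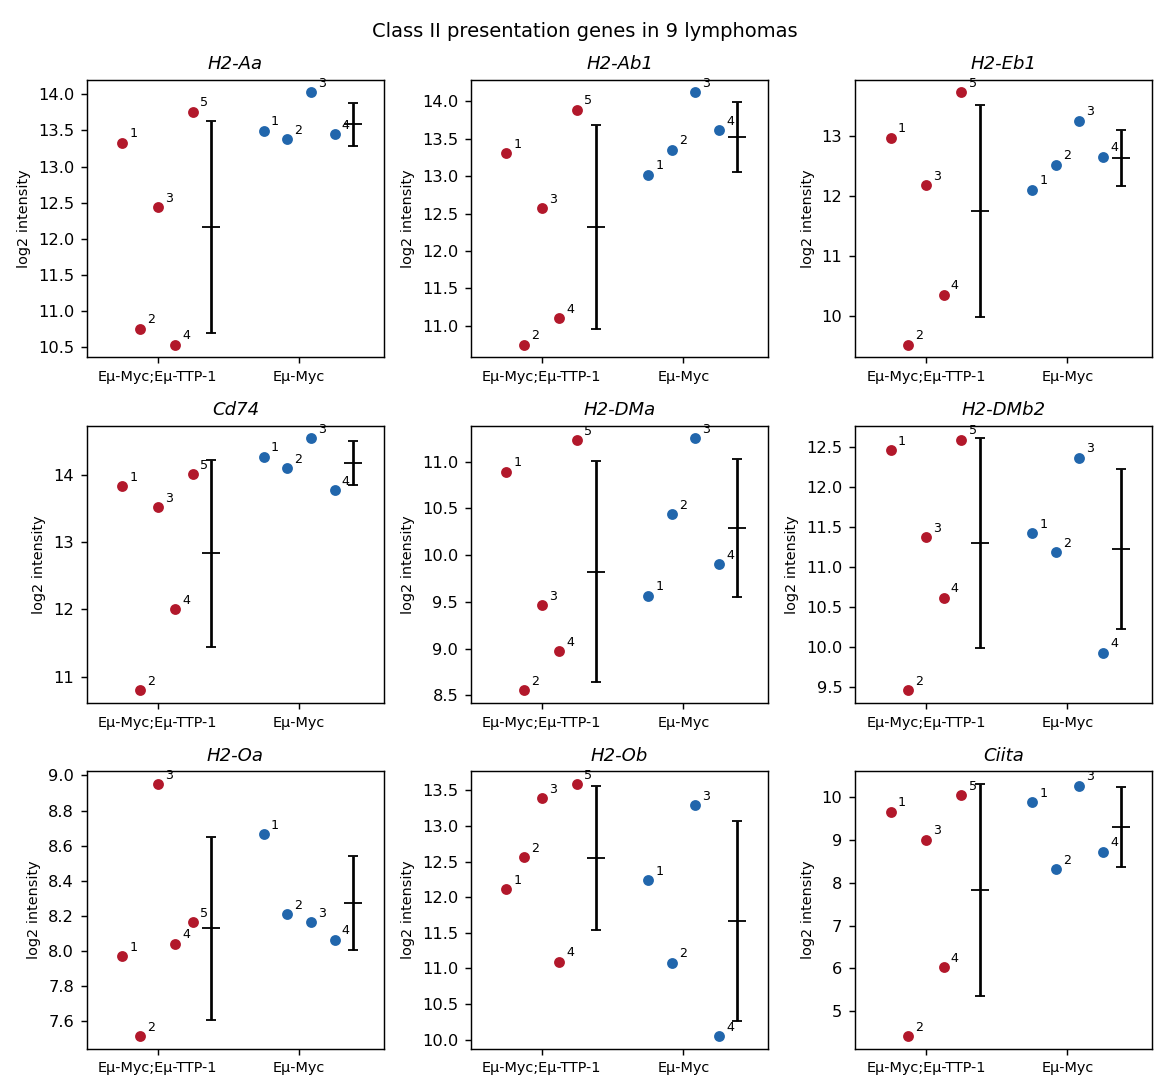
Log2 intensity of the 9 class II genes with a probe set of their own, 1 point per lymphoma with its replicate number, 5 double-transgenic (Eμ-Myc;Eμ-TTP-1) lymphomas left and 4 Eμ-Myc lymphomas right; bars give the mean and SD of each group, and each panel has its own scale. Double-transgenic replicates 2 and 4 are the 2 lowest points in the panels of H2-Aa, H2-Ab1, H2-Eb1, Cd74, H2-DMa and Ciita.

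The peptide editor H2-DM followed the same order in part. H2-DMa was at 10.89, 8.55, 9.46, 8.97 and 11.23 in double-transgenic lymphomas, against 9.56, 10.44, 11.25 and 9.90 in Eμ-Myc lymphomas. Its 2 lowest values were again in double-transgenic replicates 2 and 4, with replicate 3 of that group and replicate 1 of the Eμ-Myc group next. H2-DMb2 was at 12.47, 9.46, 11.38, 10.62 and 12.60 in double-transgenic lymphomas, against 11.43, 11.19, 12.37 and 9.93 in Eμ-Myc lymphomas. Here Eμ-Myc replicate 4 took the second lowest place. The 2 probe sets that the annotation gives to H2-DMb1 and H2-DMb2 together cannot be split between the genes. The brighter of them was at 11.70, 9.19, 10.98, 9.62 and 11.88 in double-transgenic lymphomas and at 10.47, 10.77, 11.54 and 10.31 in Eμ-Myc lymphomas. The dimmer one was at 10.32, 8.07, 9.68, 8.35 and 11.04 in double-transgenic lymphomas, against 8.67, 9.60, 10.17 and 9.58 in Eμ-Myc lymphomas. Both were lowest in double-transgenic replicates 2 and 4. A second H2-DMa probe set stayed under a log2 intensity of 4 in all 9 arrays and carries no information.

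The H2-O genes, which encode the brake on H2-DM, did not share this order. H2-Oa was at 7.97, 7.52, 8.95, 8.04 and 8.17 in double-transgenic lymphomas, against 8.67, 8.21, 8.17 and 8.06 in Eμ-Myc lymphomas. It varied least of the 9 genes: its SD over the lymphomas of 0.41 stood at percentile 57.2 of all genes tested, and those of the other 8 genes at percentiles 86.5 to 97.3. H2-Ob was at 12.11, 12.56, 13.39, 11.10 and 13.59 in double-transgenic lymphomas, against 12.23, 11.08, 13.29 and 10.05 in Eμ-Myc lymphomas. Its lowest values were in Eμ-Myc replicates 4 and 2, and double-transgenic replicate 2, among the 2 lowest in Ciita, ranked above 5 of the other 8 lymphomas. The probe set shared by H2-Ob and Gm20506 was likewise lowest in Eμ-Myc replicate 4, at 7.10, and at 9.66 in double-transgenic replicate 2.

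In all, 6 of the 9 genes (H2-Aa, H2-Ab1, H2-Eb1, Cd74, H2-DMa and Ciita) had their 2 lowest values in double-transgenic replicates 2 and 4, and 4.17% of the 10172 genes tested did so. The 2 lymphomas were singled out by Ciita after its values were seen, so the share is a description. It is no test, and the lymphomas are not averaged as a group. In bulk samples of this kind, fewer cells that carry a gene and less RNA of it per cell cannot be told apart.

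Across the 2 genotypes none of the 9 genes passed the test. Limma's adjusted p was at least 0.859 for each of them, and 0% of the 10172 genes tested were called in either direction; at an unadjusted p of 0.05 the count was 0 of the 9 genes, beside 5.67% of all genes tested. The estimate was lower in double-transgenic lymphomas for 7 of the 9 genes, beside 41.1% of all genes tested, with a median log2 difference of -0.88 beside 0.05 over all genes. None of the 9 genes separated the groups, as 1.64% of all genes did. In 8 of the 9, H2-Ob being the exception, the double-transgenic values covered the wider range. H2-Aa averaged 12.16 ± 1.47 in double-transgenic lymphomas and 13.59 ± 0.30 in Eμ-Myc lymphomas (SD). The log2 difference was -1.42 (95% interval -2.98 to 0.13). Cd74 averaged 12.83 ± 1.39 and 14.17 ± 0.32 in double-transgenic and Eμ-Myc lymphomas, a difference of -1.34 (95% interval -2.82 to 0.14). Ciita averaged 7.83 ± 2.48 in double-transgenic lymphomas and 9.31 ± 0.93 in Eμ-Myc lymphomas, with a difference of -1.47 and an interval of -4.18 to 1.24. The differences of H2-Ab1, H2-Eb1, H2-DMa and H2-Oa were -1.20, -0.88, -0.47 and -0.15, and those of H2-DMb2 and H2-Ob 0.07 and 0.89. The H2-Ob value was 0.35 without Eμ-Myc replicate 4 and 1.43 without Eμ-Myc replicate 3. These intervals reach differences of more than 1 log2 unit for 8 of the 9 genes, and leave a difference of that size undecided for them.

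With double-transgenic replicates 2 and 4 left out, a choice made after their values were seen, the median difference of the 9 genes became 0.24 and 3 of the 9 were lower. H2-Aa, Cd74 and H2-Ab1 were still lower, with log2 differences of -0.41, -0.38 and -0.27. Ciita, H2-Eb1, H2-DMa and H2-Oa turned to 0.27, 0.33, 0.24 and 0.09. All of the other 3 double-transgenic lymphomas had Cd74 below the Eμ-Myc mean of 14.17, while replicates 1 and 5 had H2-Eb1 above that of 12.63. No member passed the test in this setting either, the lowest adjusted p being 0.950.

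The probe sets of 1 gene gave different sizes. H2-Aa is read by 4 probe sets, 3 of them, the one used above included, of the _x_at kind, whose probes may also match related sequences. Of the other _x_at probe sets, the brighter was at 12.33, 9.51, 11.30, 9.39 and 12.59 in double-transgenic lymphomas, against 13.02, 12.74, 13.66 and 12.70 in Eμ-Myc lymphomas. Here the groups did not overlap, with a difference of -2.01 (95% interval -3.63 to -0.39) and a limma adjusted p of 0.825 over all probe sets tested. The dimmer was at 8.50, 4.12, 7.26, 4.51 and 8.93 in double-transgenic lymphomas and at 9.37, 8.97, 10.97 and 9.61 in Eμ-Myc lymphomas, again without overlap. It gave the largest difference of the 4, -3.07 (95% interval -5.50 to -0.63, limma adjusted p 0.825). Of all genes tested, each read by 1 probe set, 1.64% had groups without overlap. The share over all probe sets was not counted. In the remaining probe set, of the _s_at kind, the groups overlapped and the difference was -1.34. The 3 H2-Ab1 probe sets gave differences from -1.41 to -1.20, the 3 Ciita probe sets from -1.47 to -0.64 and the 3 H2-DMb2 probe sets from 0.07 to 0.51.

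**Figure D2:**
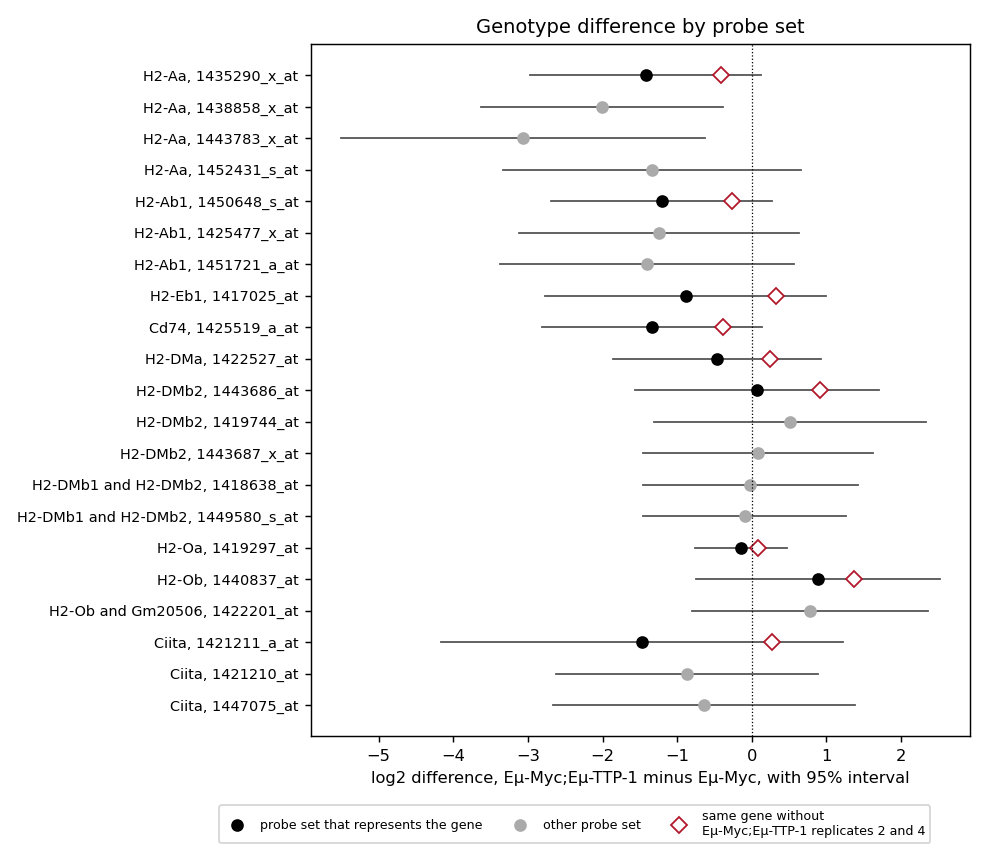
Log2 difference, double-transgenic (Eμ-Myc;Eμ-TTP-1) minus Eμ-Myc, for each member probe set that passed the filter, with its 95% interval from limma; filled black points are the probe set that represents the gene, grey points the others, and open diamonds the same gene without double-transgenic replicates 2 and 4. The interval lies below 0 for 2 of the 4 H2-Aa probe sets and spans 0 for all other probe sets, and the diamonds lie right of the black points. The limma adjusted p was 0.825 for each of those 2 H2-Aa probe sets.

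Each gene was then set against Ciita. Because the 9 lymphomas fall into separate clusters of Ciita, no correlation over all 9 is given, and r was computed over the 7 lymphomas with the higher Ciita. These are 3 double-transgenic and 4 Eμ-Myc lymphomas. Over them, 7 of the 8 other genes had a positive r, beside 45.7% of the 10171 other genes tested. None passed the test after adjustment, and 0% of all genes did; the exact permutation has 5040 pairings and a smallest p of 0.000198, which a single gene cannot bring under the threshold once all genes are adjusted for. At an unadjusted exact p of 0.05 for r the count was 0 of the 8, beside 8.08% of all genes. H2-DMb2 had the highest r, 0.74, with a Spearman rho of 0.79 (two-sided exact permutation p of 0.0534 and 0.0480, adjusted 0.620 and 0.624). H2-Ob followed with 0.69 and 0.68 (exact p 0.0881 and 0.110, adjusted 0.656 and 0.695). H2-Aa had an r of 0.54 and a rho of 0.71 (exact p 0.207 and 0.0881, adjusted 0.733 and 0.663), and Cd74 0.54 for each (exact p 0.215 and 0.236, adjusted 0.738 and 0.765). The r of H2-Eb1, H2-DMa and H2-Ab1 were 0.52, 0.50 and 0.42, with rho of 0.50, 0.57 and 0.43 and exact p of 0.200 or more, adjusted 0.745 or more. H2-Oa had an r of -0.07 and a rho of -0.09 (exact p 0.858 and 0.859, adjusted 0.971 and 0.988).

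The 2 of these 7 lymphomas farthest from the median of Ciita were Eμ-Myc replicates 2 and 4. Without them, over 5 lymphomas, r was 0.998 for H2-Aa, 0.91 for Cd74, 0.90 for H2-Ab1, 0.70 for H2-DMa, 0.63 for H2-Eb1 and 0.62 for H2-DMb2. For H2-Ob it was 0.01, so that the r of 0.69 rests on those 2 lymphomas, and for H2-Oa -0.67. The adjusted exact permutation p over these 5 was 0.937 or more for each gene. Leaving out Eμ-Myc replicate 3, the lymphoma highest in Ciita, moved r the other way, to 0.36 for H2-Aa, 0.29 for Cd74, 0.16 for H2-Ab1 and 0.32 for H2-DMa. The size of r for these 4 genes thus depends on which lymphomas are included. The 3 Ciita probe sets correlated with each other at 0.88 to 0.98 over the 7 lymphomas. Points of 1 array share its normalisation and its mix of cells.

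**Figure D3:**
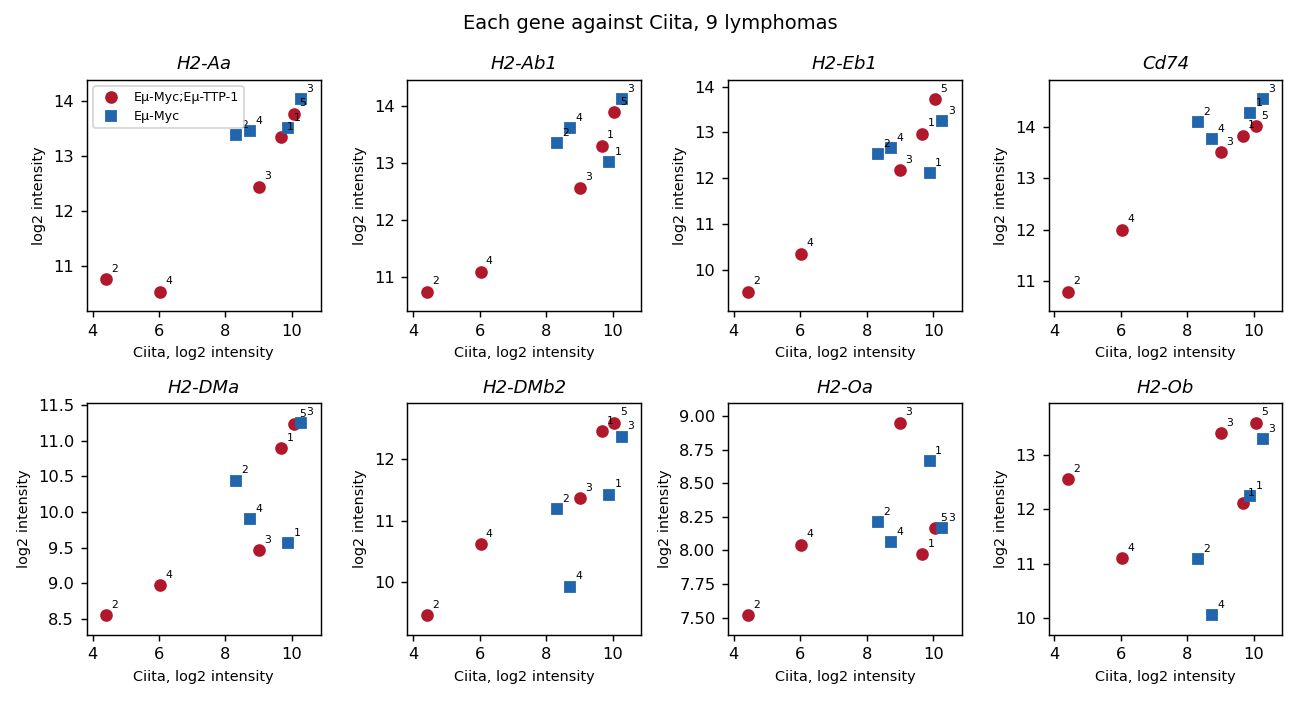
Log2 intensity of each of the 8 other class II genes (vertical, own scale) against that of Ciita (horizontal) in the same array, circles for the 5 double-transgenic (Eμ-Myc;Eμ-TTP-1) lymphomas and squares for the 4 Eμ-Myc lymphomas, numbered by replicate. Double-transgenic replicates 2 and 4 stand alone at the left, low in H2-Aa, H2-Ab1, H2-Eb1 and Cd74, and replicate 2 is at 12.56 in the H2-Ob panel.

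Apart from Cd74 on chromosome 18 and Ciita on chromosome 16, the genes lie side by side on chromosome 17, from H2-Oa (start 34092379) to H2-Eb1 (end 34316674) in GRCm38.p6, and genes of other function lie between them. Of 5 such genes tested between H2-Oa and H2-Ea (Brd2, which binds acetylated histones, Psmb8 and Psmb9, which encode immunoproteasome subunits, and Tap1 and Tap2, which encode the class I peptide transporter), 0 had their 2 lowest values in double-transgenic replicates 2 and 4. Their deviation from the median of the 9 lymphomas was 0 to 0.65 in double-transgenic replicate 2 and -0.86 to 0.02 in replicate 4. Over the same stretch H2-Ab1, H2-Aa and H2-Eb1 deviated by -3.01 to -2.56 in replicate 2 and by -2.84 to -2.17 in replicate 4. The other class II genes of the stretch deviated less: H2-DMb2 by -1.92 and -0.76 in replicates 2 and 4, H2-DMa by -1.35 and -0.93, H2-Oa by -0.65 and -0.12 and H2-Ob by 0.33 and -1.14. Among the 10 tested genes nearest to Ciita, 1 (Nubp1) had its 2 lowest values in these lymphomas. Of all genes tested 4.17% did so, and 0 of 5 and 1 of 10 are counts too small to set against that share. The median deviation of all tested genes of chromosomes 16, 17 and 18 was 0 in both double-transgenic replicates 2 and 4. Double-transgenic replicate 5, where H2-Eb1, H2-DMb2 and H2-Ob were highest, had a chromosome 17 median of 0.33, and Eμ-Myc replicate 4 a chromosome 16 median of 0.50. Eμ-Myc replicate 3 was the highest in H2-Aa, H2-Ab1, H2-DMa, Cd74 and Ciita. Its medians were -0.09 for chromosome 17, 0.32 for chromosome 18 and -0.10 for chromosome 16. Whether such medians bear on the class II levels was not tested. The neighbouring genes were chosen after the values of the class II genes were seen.

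**Figure D4:**
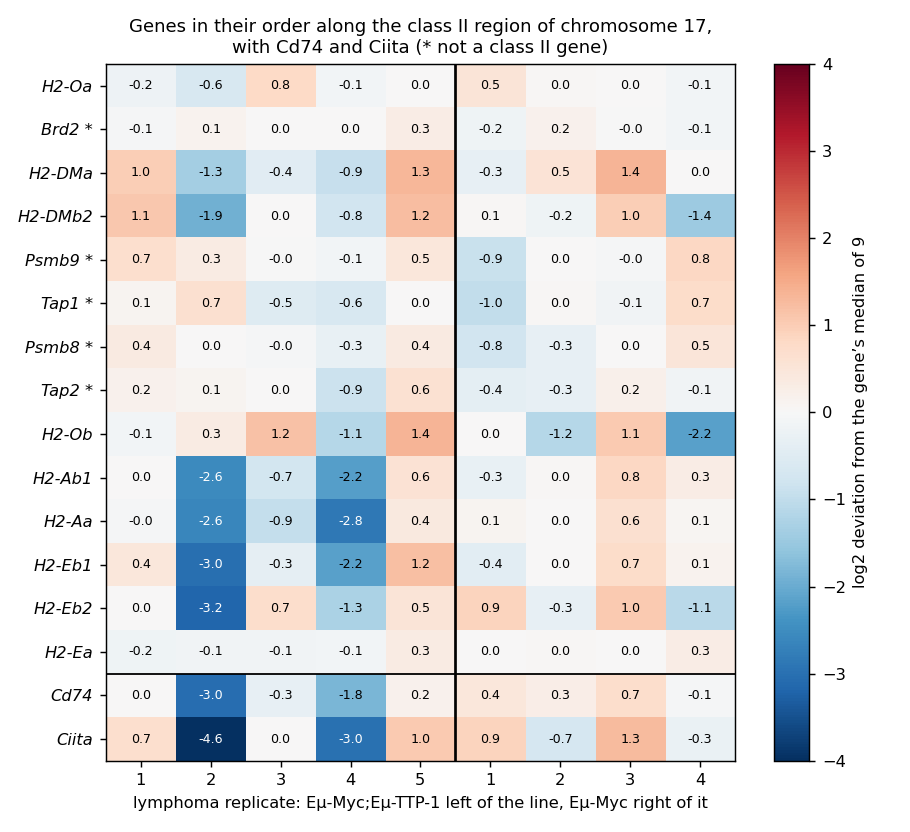
Log2 deviation of each gene from its median over the 9 lymphomas, blue below and red above, for tested genes in their order along the class II region of chromosome 17, with Cd74 and Ciita under the line; columns are the 5 double-transgenic (Eμ-Myc;Eμ-TTP-1) lymphomas left and the 4 Eμ-Myc lymphomas right, and an asterisk marks genes of other function. In double-transgenic replicates 2 and 4 the darkest blue lies in H2-Ab1, H2-Aa, H2-Eb1, H2-Eb2, Cd74 and Ciita, while Brd2, Psmb9, Tap1, Psmb8 and Tap2 deviate by -0.86 to 0.65 there.

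The 2 class II genes of the region outside the list differed from each other. H2-Eb2, a further β chain gene, was at 7.65, 4.47, 8.35, 6.37 and 8.16 in double-transgenic lymphomas, against 8.53, 7.32, 8.69 and 6.56 in Eμ-Myc lymphomas. Its 2 lowest values were in double-transgenic replicates 2 and 4, with Eμ-Myc replicate 4 next, and its promoter window holds the X and Y pair with 22 bases between. The window of H2-Eb2, shown because it has the order of Ciita in the lowest lymphomas, is printed like those above.
H2-Eb2, chr17:34325530-34325589: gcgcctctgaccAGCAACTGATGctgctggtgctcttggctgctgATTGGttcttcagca
H2-Ea, the α chain gene of H2-E, which the b haplotype of C57BL/6 mice does not express as protein, lay between 6.34 and 6.84 in double-transgenic lymphomas and between 6.50 and 6.79 in Eμ-Myc lymphomas.

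None of the other pathway lists had a member past the test, with the same 0% of all genes called. Of 7 factors that bind the class II promoters, the estimate was higher in double-transgenic lymphomas for 6 and lower for 1, with a median difference of 0.23 beside 0.05 over all genes. None of the 7 had its 2 lowest values in double-transgenic replicates 2 and 4, beside 4.17% of all genes tested. Nfya, the NF-Y subunit that contacts the Y box, was at 11.07, 11.98, 11.33, 11.41 and 11.44 in double-transgenic lymphomas, against 10.55, 10.76, 10.90 and 10.66 in Eμ-Myc lymphomas. It was the 1 of the 7 factors whose groups did not overlap, beside 1.64% of all genes tested. The difference was 0.73 (SE 0.18) with a limma adjusted p of 0.845. Rfx5, the DNA-binding RFX subunit, was at 8.75 to 9.69 in double-transgenic and 8.42 to 9.63 in Eμ-Myc lymphomas. The lowest r with Ciita over the 7 lymphomas was that of Nfyc, -0.90 with a rho of -0.75 (exact permutation p 0.00437 and 0.0663, adjusted 0.434 and 0.635), and r was -0.65 without Eμ-Myc replicates 2 and 4.

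Of 9 tested factors known to act on the Ciita gene, 5 had a higher and 4 a lower estimate in the double-transgenic group, with a median difference of 0.05. The 2 lowest values lay in double-transgenic replicates 2 and 4 for 2 of the 9, Irf8 and Bach2, beside 4.17% of all genes tested. Spi1, which encodes the myeloid and B cell factor PU.1, was at 10.20, 11.99, 10.01, 10.55 and 10.31 in double-transgenic lymphomas, against 9.88, 10.32, 10.57 and 9.85 in Eμ-Myc lymphomas, so that double-transgenic replicate 2 was the highest. Irf8, an interferon regulatory factor of the B and myeloid lineages, had its 2 lowest values, 11.13 and 11.61, in double-transgenic replicates 2 and 4, with Eμ-Myc replicates 1 and 4 at 11.62 and 11.63. Bach2, a repressor that B cells use before they become plasma cells, was also lowest there, at 9.64 and 11.77, beside 12.75 to 13.76 in the other 3 double-transgenic lymphomas and 12.25 to 13.57 in Eμ-Myc lymphomas. Prdm1, whose product silences Ciita in plasma cells, was at 3.64 and 5.51 in double-transgenic replicates 2 and 4, within its range of 2.59 to 6.18 in double-transgenic and 2.13 to 7.68 in Eμ-Myc lymphomas. Pax5, the B lineage factor, was at 8.66, 8.49, 8.66, 8.66 and 8.66 in double-transgenic lymphomas, against 8.58, 9.65, 8.32 and 8.91 in Eμ-Myc lymphomas. Double-transgenic replicates 1, 3, 4 and 5 held the same value. The r of Pax5 with Ciita over the 7 lymphomas was -0.85 and its rho -0.89 (exact permutation p 0.00238 and 0.0143, adjusted 0.434 for r). Without Eμ-Myc replicates 2 and 4, r was -0.62. Among double-transgenic replicates 1, 3 and 5 Pax5 did not vary with Ciita, so these values show no graded relation there. At the other end, Foxo1 had the highest r with Ciita of these factors, 0.77 with a rho of 0.64. Its exact permutation p was 0.0482 for r and 0.139 for rho, and the adjusted p for r was 0.611. Without Eμ-Myc replicates 2 and 4, its r was -0.03. Socs1 did not pass the filter.

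Read next were 10 genes for endosomal proteases, the thiol reductase GILT and the protease inhibitor cystatin C (Cst3). In the double-transgenic group 8 of them had a lower and 2 a higher estimate, with a median difference of -0.27. Their 2 lowest values lay in replicates 2 and 4 of that group for 0 of the 10, beside 4.17% of all genes tested. Lgmn, the asparaginyl endopeptidase, was at 11.48, 10.80, 10.67, 11.96 and 11.43 in double-transgenic lymphomas, against 11.89, 11.99, 12.70 and 12.52 in Eμ-Myc lymphomas, a difference of -1.01 (SE 0.30, limma adjusted p 0.845). Ctss, cathepsin S, which makes the last cut of invariant chain in B cells, was at 14.25, 11.80, 13.69, 13.71 and 14.04 in double-transgenic lymphomas, against 14.04, 13.88, 14.57 and 14.21 in Eμ-Myc lymphomas. Ifi30, the gene of GILT, was at 12.80, 11.00, 12.80, 12.64 and 12.84 in double-transgenic lymphomas and at 12.51, 13.51, 13.10 and 12.86 in Eμ-Myc lymphomas. Both were lowest in double-transgenic replicate 2, and replicate 4 lay near replicate 3. Of the 3 genes that set surface turnover, 2 were higher and 1 lower in the double-transgenic group by their estimates. Marchf1, a ubiquitin ligase of class II, was at 5.88 to 6.25 in double-transgenic and 5.35 to 7.68 in Eμ-Myc lymphomas.

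Genes of T cell costimulation and of class I presentation were read beside them. Of 3 costimulation genes tested, 1 had a higher and 2 a lower estimate in the double-transgenic group, with a median difference of -0.42. Icosl and Cd40, 2 of the 3, had their 2 lowest values in double-transgenic replicates 2 and 4, beside 4.17% of all genes tested. Icosl, the ligand of ICOS, was at 8.67, 4.09, 8.64, 4.54 and 8.84 in double-transgenic lymphomas, against 4.59, 6.00, 9.68 and 5.93 in Eμ-Myc lymphomas, so that Eμ-Myc replicate 1 lay close to the lowest 2. Cd40, through which T cells activate B cells, was at 5.22 to 5.99 in double-transgenic lymphomas and 5.59 to 9.16 in Eμ-Myc lymphomas. Its values of 5.38 and 5.22 in double-transgenic replicates 2 and 4 lay close to 5.47 in double-transgenic replicate 1. Of 11 class I genes, 6 had a lower and 5 a higher estimate in the double-transgenic group, with a median difference of -0.03. Their 2 lowest values lay in double-transgenic replicates 2 and 4 for 0 of the 11, beside 4.17% of all genes tested. B2m, the light chain of class I, was at 14.45, 14.83, 14.39, 14.27 and 14.41 in double-transgenic lymphomas, against 14.46, 14.36, 14.47 and 14.76 in Eμ-Myc lymphomas. Erap1, the aminopeptidase that trims class I peptides, was the 1 of 11 class I genes whose groups did not overlap, beside 1.64% of all genes tested, at 9.78 to 10.32 in double-transgenic and 10.51 to 11.02 in Eμ-Myc lymphomas (difference -0.52, SE 0.16, limma adjusted p 0.845). The mean of the 9 class II genes was 9.37 and 9.86 in double-transgenic replicates 2 and 4, and 11.13 to 12.37 in the other 7. That of the 11 class I genes was 12.01 and 11.54 in these 2 and 11.56 to 12.22 in the other 7.

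**Figure D5:**
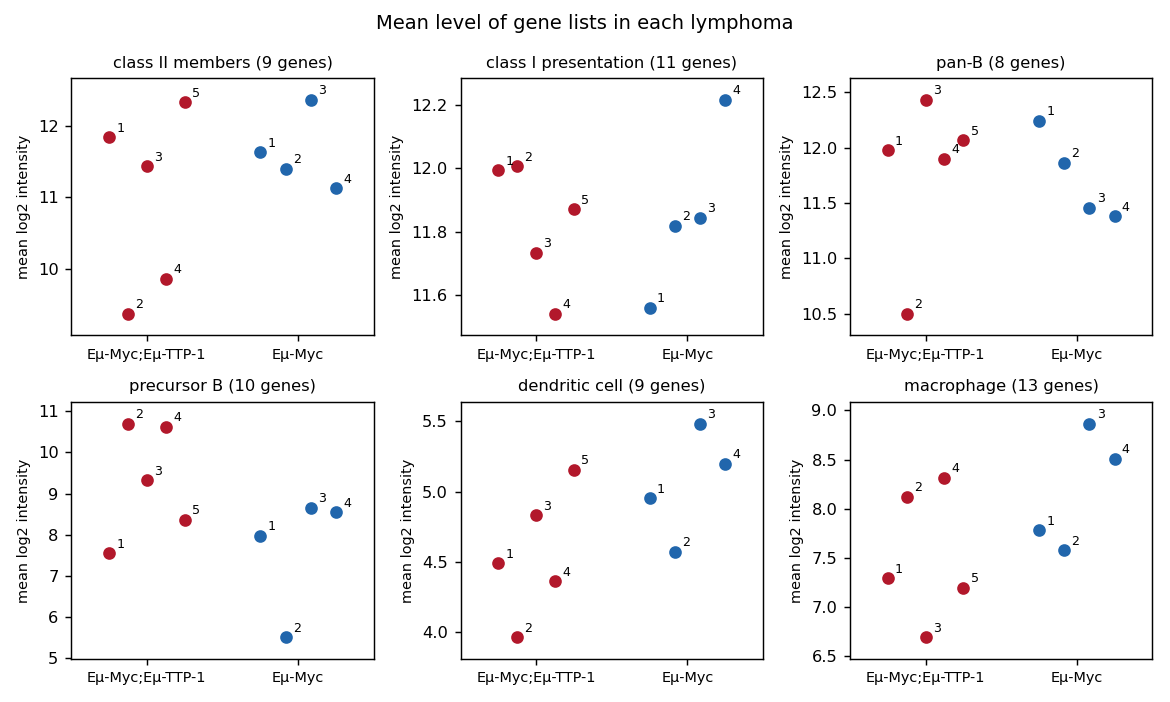
Mean log2 intensity of the named genes of 6 lists, 1 point per lymphoma with its replicate number, 5 double-transgenic (Eμ-Myc;Eμ-TTP-1) lymphomas left and 4 Eμ-Myc lymphomas right, each panel with its own scale. Double-transgenic replicates 2 and 4 are lowest in the class II panel, at 9.37 and 9.86, and highest in the precursor B panel, at 10.70 and 10.62. Replicate 2 is lowest in the pan-B panel, at 10.50, though Cd79b of that list was highest there, at 15.30.

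Some markers of B cell stage also set double-transgenic replicates 2 and 4 apart. The B cell receptor gene Cd79a was high in all 9 lymphomas, 13.69 to 14.04 in double-transgenic and 13.24 to 14.06 in Eμ-Myc lymphomas. Of the surrogate light chain genes of B cell precursors, Vpreb1 was at 2.48, 14.79, 3.36, 12.33 and 3.13 in double-transgenic lymphomas, against 2.51, 2.48, 3.82 and 9.69 in Eμ-Myc lymphomas. Igll1 was at 5.76, 15.34, 5.31, 12.10 and 5.33 in double-transgenic lymphomas, against 5.84, 6.14, 6.06 and 11.00 in Eμ-Myc lymphomas. Both were high in double-transgenic replicates 2 and 4 and in Eμ-Myc replicate 4. Ciita in Eμ-Myc replicate 4 was at 8.73, below its median of 9.01 but among the 7 lymphomas with the higher Ciita. That lymphoma had the lowest H2-Ob and the second lowest H2-DMb2. Of 8 precursor B genes tested, 2 (Igll1 and Kit) had their 2 highest values in double-transgenic replicates 2 and 4, beside 5.77% of all genes tested. Others did not: Rag1, a recombinase gene, was at 10.59 and 13.39 there and up to 15.23 in double-transgenic replicate 3, and Cd93 was at 11.53 and 11.37, beside up to 13.79 in double-transgenic and 11.29 to 13.60 in Eμ-Myc lymphomas. The 10 precursor B genes summed to an intensity of 93895 in double-transgenic replicate 2 and 37057 in replicate 4, the range being 19510 to 93895 in double-transgenic and 7897 to 44130 in Eμ-Myc lymphomas. Double-transgenic replicate 2 also had the lowest Cd22, a B cell receptor inhibitor, at 6.99, beside 11.91 to 12.93 in the other 8 lymphomas. The pan-B genes were divided in that lymphoma. Cd72 was lowest there, at 7.50, beside 10.13 to 12.45 in the other 8, while Cd79b was highest there, at 15.30, beside 14.37 to 14.98. Ebf1 was at 12.08 there, with only double-transgenic replicate 3 higher, at 12.57. Of 7 mature B genes tested, 2 (Fcer2a and Cr2) had their 2 lowest values in double-transgenic replicates 2 and 4, beside 4.17% of all genes tested. Both ranks lie near background. Cr2 was at 2.81 and 2.82 there, beside 2.86 in Eμ-Myc replicate 1, and Fcer2a at 4.56 and 4.52, beside 4.60 in that lymphoma. Ms4a1 was at 11.20 and 13.92 in double-transgenic replicates 2 and 4, within the range of the other 7, 10.08 to 14.47. The 8 named mature B genes averaged 6.84 and 8.16 in double-transgenic replicates 2 and 4, and 7.02 to 9.42 in the other 7. Their part in the class II levels was not tested.

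Other cells that carry class II were followed through 9 dendritic cell and 13 macrophage genes. Of the dendritic genes, 4 (Zbtb46, Xcr1, Siglech and Cd209a) were under an intensity of 16 in all arrays. The 9 averaged 3.96 and 4.36 in double-transgenic replicates 2 and 4, the lowest of all, and 4.49 to 5.48 in the other 7. Their summed intensity was 1610 to 7528 in double-transgenic and 2658 to 10242 in Eμ-Myc lymphomas, mostly from Fscn1 and Ccr7, which B cells can also express. Only 3 of the 9 passed the filter, and 1 of them, Ccr7, had its 2 lowest values in these 2 lymphomas, beside 4.17% of all genes tested. Ccr7 was at 9.98, 3.28, 11.08, 9.26 and 10.54 in double-transgenic lymphomas, against 11.28, 10.78, 10.27 and 10.15 in Eμ-Myc lymphomas. Clec10a was at 2.62, 6.42, 4.35, 4.32 and 4.72, against 5.31, 4.39, 5.92 and 6.91, so double-transgenic replicate 2 was the highest of its group. Fscn1 was lower in Eμ-Myc replicates 1 and 2, at 9.97 and 9.70, than in double-transgenic replicates 2 and 4, at 10.53 and 10.25. The macrophage genes averaged 8.12 in double-transgenic replicate 2 and 8.31 in replicate 4, within the range of the other 7, 6.69 to 8.87, and summed to 7987 to 20538.5 in double-transgenic and 9641 to 30082 in Eμ-Myc lymphomas. Of the 11 macrophage genes tested, 0 had their 2 lowest values in double-transgenic replicates 2 and 4, beside 4.17% of all genes tested. Single genes went both ways in double-transgenic replicate 2. Among them, Mertk and Marco were lowest of the 9 lymphomas there, at 7.94 and 3.11. Mrc1 and Cd163 were highest there, at 10.87 and 7.74. Granulocyte genes averaged 9.43 and 4.85 in double-transgenic replicates 2 and 4, and 3.43 to 8.42 in the other 7, and genes of stroma and endothelium 10.72 and 10.09, beside 7.76 to 10.67. T cell genes averaged 3.74 and 4.56 in these 2 lymphomas, beside 4.04 to 5.84, and plasma cell genes 5.70 and 6.88, beside 6.10 to 8.31. The part of these cells in the class II levels was not tested.

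Outside the list, the genes whose pattern over the 7 lymphomas was most like that of Ciita were sought by r. Among genes with a range of at least 1 log2 unit over the arrays, the 10 highest r were those of Rogdi, Slc33a1, Cpne3, Rhobtb2, Ulk2, Zfp839, Grk5, Etv3, Hdac9 and S100a10, from 0.99 to 0.90. The 5 lowest were those of Tmem135, Coa3, Zcchc10, Nudt4 and Agfg2, from -0.99 to -0.96. Only Slc33a1 of the 10 was lower in both double-transgenic replicates 2 and 4 than in any of the 7, and Cpne3 was higher in both. Against the mean of H2-Aa, H2-Ab1, H2-Eb1 and Cd74, the 10 highest r were those of Hspb1, Vps37c, Afg3l2, Bcl2l2, Fblim1, Gsto1, Speg, Kif1c, Msr1 and Pdia6, from 0.96 to 0.89. Of these, Afg3l2 and Kif1c were lower in both double-transgenic replicates 2 and 4 than in the 7. Of all genes tested, 4.17% had their 2 lowest values in those 2 lymphomas. Over 7 arrays such r are a description of these lymphomas.

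Across the series, the 9 arrays correlated with each other at 0.959 to 0.990 and had median intensities of 12.2 to 13.4. Zfp36, the gene of tristetraprolin, had a fitted mean of 10.55 ± 0.38 in double-transgenic lymphomas and 10.57 ± 0.41 in Eμ-Myc lymphomas (SD), a difference of -0.02 (SE 0.25, limma adjusted p 0.995). Whether its probe set reads the transgene was not tested. No batch is given in the labels, and p-values measure the spread between these lymphomas. For arrays, their number limits the precision.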

How the data were processed

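One array per lymphoma was analysed for 5 double-transgenic and 4 Eμ-Myc lymphomas. The authors deposited linear intensity values per probe set, made with GCRMA per the submitters' processing notes, with no version stated. GCRMA corrects background by probe sequence and normalises quantiles, which leaves weak values poorly determined. Scanner files and detection calls were not used here.

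Values were turned into log2 with no pseudocount. Of 45037 probe sets, 34945 name 1 gene, 932 several and 9160 none. Where a gene has several, the one with the highest mean over the 9 arrays stands for it; shared probe sets are given as such. The 10172 genes with a log2 value over 4 in at least 4 arrays were tested with limma 3.58.1 in R 4.3.3, two-sided, with Benjamini-Hochberg adjustment at 0.05 and no covariates; the steps were tested on simulated data. Relations to Ciita are Pearson's r with exact permutation p, adjusted over 10171 genes. A correlation over all 9 lymphomas had been planned; 7 were used because Ciita splits the 9.

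The members, the lists and the rule for named genes (all members, list genes past the test or at either end of a list, and the genes most like Ciita or the class II chains) were chosen with earlier results of these data known. Of the list genes, those named in the text, with Prdm1, Ctss, B2m and Rfx5 among them, were picked after values were seen. Alternatives were other probe set summaries, filters, a pseudocount of 16, normalisations, variance models, array weights, chromosome centring, a replicate block and each lymphoma left out.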

Additional observations from a re-analysis of the deposited data

Results flagged for a closer look

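Within each group, the highest or lowest lymphoma was checked for a gap to the rest that is large for the group's range, in 68 groups of values. The groups were those of the 9 class II genes and of genes from the lists above, some of them picked after values were seen. The rule's own rate of about 1 in 20 is thus no measure of chance here. In all 8 stood out, none of them in the 9 class II genes. Double-transgenic replicate 2 was alone in 5 of the 8. It had Ctss at 11.80, beside 13.69 to 14.25 in the rest of its group, and Ifi30 at 11.00, beside 12.64 to 12.84. It had Cd22 at 6.99, beside 11.91 to 12.93, and Erap1 at 9.78, beside 10.17 to 10.32. Its Spi1 was the high one, at 11.99, beside 10.01 to 10.55. H2-Ea was high in double-transgenic replicate 5, at 6.84 beside 6.34 to 6.39, and in Eμ-Myc replicate 4, at 6.79 beside 6.50 to 6.54. Igll1 was high in Eμ-Myc replicate 4, at 11.00 beside 5.84 to 6.14.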

How the results depend on the processing

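The count of genes past the test between genotypes was 0 in 19 of 21 settings, and 0 to 8 with 1 lymphoma left out: 8 without Eμ-Myc replicate 3, 1 without Eμ-Myc replicate 4, and no class II gene in either. The count for Ciita was 0 in all 18. With 7 or fewer lymphomas the pairings are so few that a single gene cannot pass after adjustment. That count is therefore no measure of stability. Over 198 values of the members' differences 188 kept their direction and 10 did not; over 144 values of r 142 did and 2 did not, both for H2-Oa. Leaving out 1 lymphoma gave a median difference of the 9 genes of -1.38 to -0.33, with -0.33 reached without double-transgenic replicate 2, and 6 to 8 genes lower. Without both double-transgenic replicates 2 and 4 the median was 0.24 with 3 lower, and H2-Eb1, H2-DMa, H2-Oa, Ciita and H2-Eb2 turned to 0.33, 0.24, 0.086, 0.27 and 0.28; the cause was not tested. With 1 lymphoma left out, the difference ranged from -2.03 to -0.62 for Ciita, -1.63 to -0.83 for Cd74, -1.38 to -0.33 for H2-Eb1 and -0.82 to -0.15 for H2-DMa. The values nearest 0 came without double-transgenic replicate 2, for H2-DMa without it or without Eμ-Myc replicate 3, and those farthest without double-transgenic replicate 5. H2-Ob ranged from 0.35 without Eμ-Myc replicate 4 to 1.43 without Eμ-Myc replicate 3. The r with Ciita ranged from 0.16 to 0.56 for H2-Ab1, 0.29 to 0.82 for Cd74, 0.36 to 0.69 for H2-Aa and 0.32 to 0.75 for H2-DMa, each lowest without Eμ-Myc replicate 3, and from 0.39 to 0.80 for H2-Eb1. H2-DMb2 turned to -0.25 with the replicate block and -0.024 with chromosome centring, and ranged from -0.36 to 0.53 with 1 lymphoma left out, below 0 without double-transgenic replicate 1 or 5 or Eμ-Myc replicate 4. H2-Oa ranged from -0.35 to 0.0066, above 0 without double-transgenic replicate 2, and its r with Ciita from -0.23 to 0.20, above 0 without double-transgenic replicate 3 or Eμ-Myc replicate 3. The numbers of the 2 groups share only a number: deviations of same-numbered lymphomas correlated at -0.09, 0.09, -0.003 and 0.20. The fit with the replicate block, which takes nothing from double-transgenic replicate 5, made 0 calls. For the relation to Ciita the replicate block was not run over 7 lymphomas, and the correlation over all 9 is not given. Signal near background limits the lowest Ciita values.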
